A study of Homo sapiens with 12 samples.

Results

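The 41 genes that encode the subunits, regulators and activators of the proteasome were followed in HK-2 cells, an immortalized human proximal tubule line, after exposure to 3 nephrotoxic drugs. Members were the protein-coding genes whose symbol is PSMA, PSMB, PSMC, PSMD or PSME followed by a number, leaving out PSMB8 and PSMB9, which gave 41 of the 58735 genes in the count table. The 12 RNA-seq samples were 3 control samples given water, 3 samples treated with 75 mg I/mL iohexol, an iodinated contrast agent, 3 with 5 µM cisplatin, a platinum compound that binds DNA, and 3 with 4 mM vancomycin, a glycopeptide antibiotic. Each drug was given at 1 dose for 48 h to 1 cell line, so no dose or time course was measured. Nothing in the labels ties the replicates to separate cultures, and p-values therefore measure only the spread between these samples, which may be technical.

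The proteasome is the main protease of the cytosol and nucleus. Its 20S core is a barrel of stacked alpha and beta rings, in which the beta subunits PSMB5, PSMB6 and PSMB7 cut proteins at their chymotrypsin-like, caspase-like and trypsin-like sites. The 19S particle caps the barrel: its lid removes ubiquitin, its non-ATPase base subunits bind ubiquitinated proteins, and its ring of PSMC ATPases unfolds them and feeds them into the core. The PSME proteins are alternative caps that open the core without ATP, and interferon-inducible beta subunits (PSMB8, PSMB9 and PSMB10) replace the constitutive catalytic ones in the immunoproteasome. Cells that lose proteasome activity are known to raise most subunit genes together through the transcription factor NRF1 (NFE2L1), which binds antioxidant response elements in their promoters.

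Because NRF1 is known to act through that element, its core TGACNNNGC was searched on both strands in RefSeq promoters of GRCh38.p14. Each promoter ran from 250 bases before to 50 after a transcription start. Promoters were found for 36 of the 41 members, and PSMA7, PSMB1, PSMB6, PSMB7 and PSMD4 had none. Of the 36 genes, 12 held the core (33.3%), beside 16.1% of the 27195 genes with a promoter in the same table. The stretches of 5 members, from the beta ring, the lid, the base chaperones and the 11S activator, are shown with the core in capitals, 5′ to 3′ on the strand of the gene, cut where the gene begins in the count table's annotation.
PSMB3, a beta ring subunit, chr17:38752612-38752670, + strand: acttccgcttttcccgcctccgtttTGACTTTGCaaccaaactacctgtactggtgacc
PSMD3, a lid subunit, chr17:39980745-39980796, + strand: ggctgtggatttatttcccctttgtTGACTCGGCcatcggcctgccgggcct
PSMD12, a lid subunit, chr17:67366709-67366767, - strand: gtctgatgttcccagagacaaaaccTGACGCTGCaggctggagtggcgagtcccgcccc
PSMD5, a base assembly chaperone, chr9:120843023-120843081, - strand: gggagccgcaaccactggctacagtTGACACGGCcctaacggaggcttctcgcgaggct
PSME1, an activator subunit, chr14:24136083-24136141, + strand: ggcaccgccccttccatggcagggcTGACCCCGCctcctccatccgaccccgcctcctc
A match to these letters describes the sequence and does not show that a factor binds there. The other motifs searched were CCAAT, found in 50.0% of the 36 members and 39.7% of all genes, the GC box GGGCGG, found in 63.9% and 48.4%, and the ETS core CCGGAAG, found in 36.1% and 12.2%. The 4 motifs were counted independently, so their matches may overlap.

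Total counts per sample lay between 14057282 and 18177109, and a floor of 3 counts corresponded to 0.165 to 0.213 CPM, the count scaled to a fixed library total. All CPM values below are scaled by TMM, which sets the samples to a common level over most genes. Its factors were lowest with vancomycin (0.885 to 0.897), near 1 in the control (0.961 to 0.976) and iohexol groups (1.02 to 1.04), and highest with cisplatin (1.12 to 1.13). Control replicate 1, iohexol replicate 3 and vancomycin replicate 2 differed more from the others of their group than those did from each other, so the main counts are also given without these 3 libraries. Of 12 proximal tubule markers 5 reached 1 CPM in the control samples, and SLC22A6 had 0 counts in every library. Of the 5, SLC5A2 and ANPEP were near 1, at control means of 1.43 and 1.44 CPM. The list summed to 660 to 767 CPM in control, 765 to 978 with iohexol, 797 to 895 with vancomycin and 318 to 340 with cisplatin. This sum was nearly all PAX8, GGT1 and SLC4A4, whose means did not move together. In that order they were 372, 189.5 and 153 CPM in control and 617, 147.5 and 114 with iohexol. They were 407, 363 and 80.5 CPM with vancomycin and 131, 169 and 23.9 with cisplatin. Of 8 markers of other cell types 1 reached 1 CPM in the control samples, and their sum was between 1.76 and 9.18 CPM over all 12 libraries. Within this sum mean DES went from 0.53 CPM in control to 6.37 with vancomycin. Mean PECAM1 went from 1.3 CPM in control to 0.083 with vancomycin and 3.80 with iohexol. Of 5 epithelial markers 4 reached 1 CPM in the control samples. Their sum was 1229 to 1281 CPM in the cisplatin libraries and 1228 to 1346 in the vancomycin libraries, above the 763 to 852 of the controls, and 634 to 770 in the iohexol libraries. KRT8 and KRT18 made up most of the epithelial sum, and they and KRT19 had higher means under cisplatin and vancomycin than in control. EPCAM ran against the epithelial sum: its cisplatin mean was 35.4 CPM and its vancomycin mean 76.9, both below its control mean of 101. Its iohexol mean was 118 CPM. The part of these marker sums in the drug differences was not tested.

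Of the 41 members, 39 entered the tests, and each of these had at least 10 counts in every library. PSMA8, a testis alpha subunit, had 0 counts in all 12 libraries, and PSMB11, the thymus beta subunit, had between 0 and 3. Per kilobase of annotated exon, PSMA7 of the alpha ring had the highest control level of the 39, at 168 ± 6.19 CPM per kb (SD, n = 3). The base subunit PSMD2 followed with 132 ± 6.34 CPM per kb and the catalytic subunit PSMB7 with 131 ± 1.35, and these 2 levels did not differ beyond their SDs. The beta subunits PSMB4 and PSMB3 came next with 110 ± 6.41 and 97.6 ± 2.11 CPM per kb. At the other end stood the alpha subunit PSMA6 at 0.414 ± 0.169, the chaperone PSMD9 at 1.12 ± 0.0753 and the alpha subunit PSMA2 at 1.25 ± 0.286 CPM per kb. The subunits of a ring are present in equal numbers in the particle, whereas the 7 tested alpha genes spanned the whole range from PSMA6 to PSMA7 in these counts.

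The genes with the lowest levels were also among those that share sequence with other annotated genes. In the GENCODE release 29 annotation, on which all 41 members have the start and end of the count table, 41.1% of the 31-base words of PSMA6 transcripts were also found in transcripts of other genes, and the same held for 46.0% of PSMA2, 34.0% of PSMA1, 36.5% of PSMD9 and 42.5% of PSMB10. For each of these 5 another protein-coding gene covered part of the exons on the same strand, for example 34.8% of the PSMB10 exon bases. In PSMC1, 86.1% of the words were shared, mostly with NRDE2 on the opposite strand. Further members with more than 20% shared words were PSMD4 at 31.3%, PSMD7 at 30.7% and PSMC6 at 23.9%. Counting can split or drop reads of such genes, so their levels are uncertain, and the part of this in any drug difference was not tested. Among the 27 members with under 10% on both measures, 25 were tested, and their median log2 fold changes were -0.25 with iohexol, 0.27 with cisplatin and 0.34 with vancomycin.

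**Figure D1:**
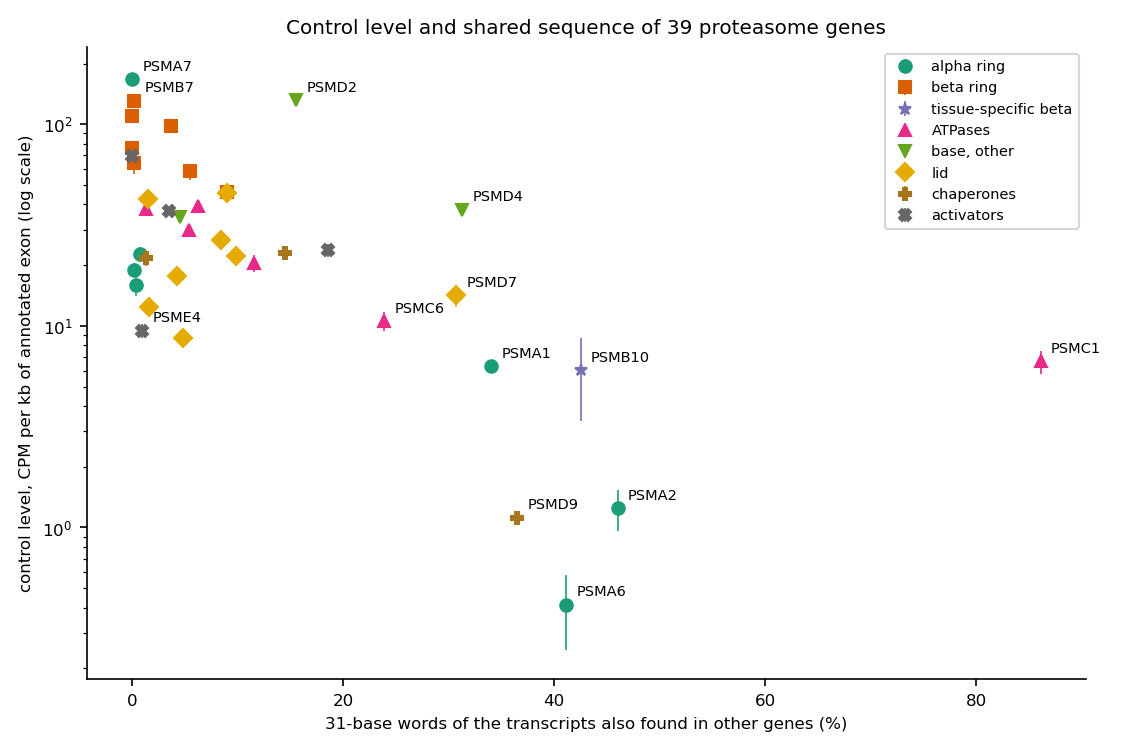
Control level of the 39 tested genes in CPM per kb of annotated exon (log scale, mean of 3 libraries with SD bars) against the percentage of 31-base words that other genes also hold. PSMA6, PSMA2 and PSMD9, with 41.1%, 46.0% and 36.5% shared words, lie lowest, and PSMA7, with 0% shared words, lies highest.

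The first question was whether each drug changed the proteasome genes against the control group. With cisplatin 26 of the 39 tested members were higher and 3 lower, with vancomycin 24 were higher and 5 lower, and with iohexol 1 was higher and 12 lower. A member was called when its adjusted p in edgeR's quasi-likelihood test was under 0.05. Over all genes tested, the same rule called 29.2% higher and 30.6% lower with cisplatin, 29.0% higher and 28.8% lower with vancomycin, and 11.2% higher and 9.77% lower with iohexol. The median log2 fold change of the members was 0.28 with cisplatin (all genes tested 0.01), 0.34 with vancomycin (all genes -0.01) and -0.24 with iohexol (all genes 0.01). The 3 comparisons share the same 3 control libraries, so their values are set side by side and are not independent of each other.

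The changes were small for single genes. Beyond a log2 fold change of 1 the rule called 1 member with cisplatin (PSMA6) and 2 with vancomycin (PSMA6 and PSMB10), all higher. With iohexol no member exceeded 1 in size. Over all genes that rule called 7.62% higher and 8.72% lower with cisplatin, 10.8% higher and 7.65% lower with vancomycin, and 4.02% higher and 1.25% lower with iohexol. The quartiles of the members were 0.06 and 0.45 on the log2 scale with cisplatin, 0.10 and 0.51 with vancomycin and -0.31 and -0.16 with iohexol. The quartiles over all genes were -0.41 and 0.42, -0.44 and 0.47, and -0.21 and 0.28. The members together took 0.472% to 0.484% of all counts in the control libraries and 0.411% to 0.442% with iohexol. Their share was 0.512% to 0.570% with vancomycin and 0.687% to 0.700% with cisplatin. These shares of raw counts are not scaled by TMM. Scaled by TMM, the mean summed CPM of the members was 4939 in control and 4098 with iohexol. It was 6158 with cisplatin and 6073 with vancomycin, so the gap between these 2 drugs in the raw shares was not seen after scaling. In bulk RNA, more transcript per cell and a larger share of cells that express a gene cannot be told apart.

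**Figure D2:**
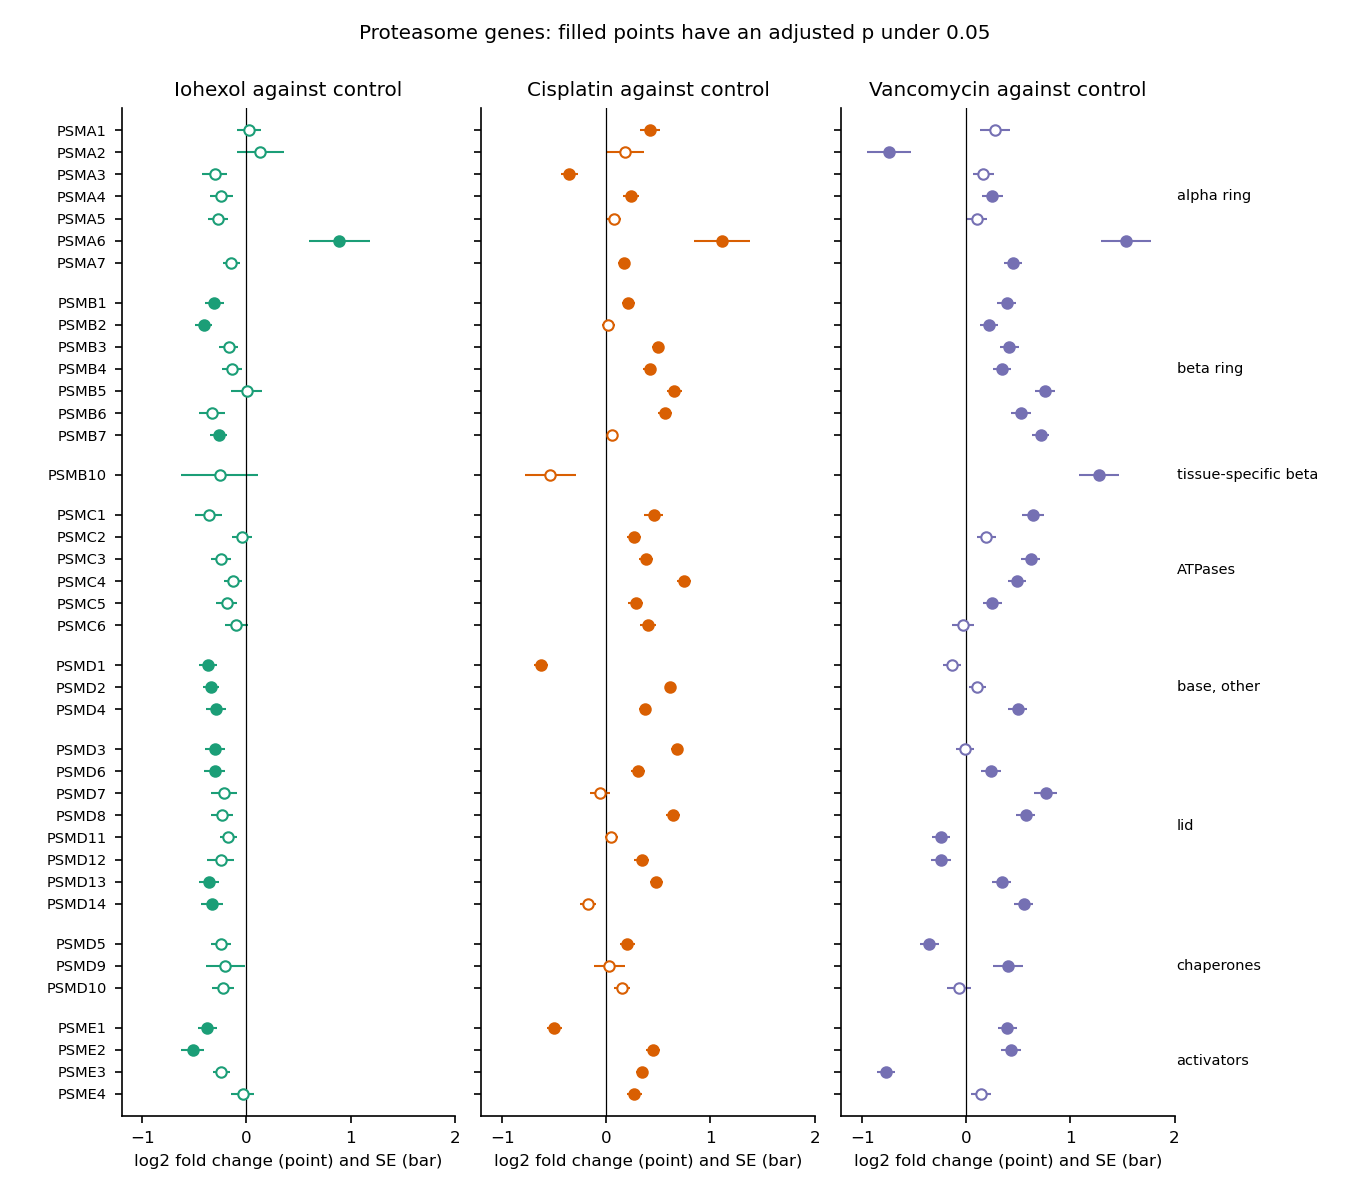
Log2 fold change of the 39 tested proteasome genes against control for each drug, ordered by their place in the particle, with bars of 1 SE. Filled points have an adjusted p under 0.05. With iohexol 35 of 39 points lie left of 0, with cisplatin 33 and with vancomycin 30 lie right of it.

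The alpha ring gates the core. With cisplatin 4 of its 7 tested genes (57.1%) were higher and 1 (14.3%) lower, beside 29.2% and 30.6% of all genes. With vancomycin 3 (42.9%) were higher and 1 (14.3%) lower, beside 29.0% and 28.8%. With iohexol 1 (14.3%) was higher, beside 11.2%. These counts and those of the other subunit groups are small and were not tested as sets. PSMA7 was at 286, 306 and 289 CPM in the control libraries, 283, 260 and 245 with iohexol, 326, 324 and 340 with cisplatin, and 374, 457 and 408 with vancomycin. Both the cisplatin and the vancomycin libraries lay above all controls, with log2 fold changes of 0.17 ± 0.06 (SE, adjusted p = 0.0162) and 0.45 ± 0.09 (adjusted p = 0.00012), while the iohexol difference of -0.14 ± 0.09 was not called. Without cisplatin replicate 3, PSMA7 was no longer called with cisplatin (adjusted p = 0.0797).

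PSMA3 was the alpha gene that fell with cisplatin. It was at 77.9, 68.9 and 65.7 CPM in control and at 58.6, 53.4 and 54.0 with cisplatin, a log2 fold change of -0.36 ± 0.08 (adjusted p = 0.000993). With vancomycin its libraries stood at 81.8, 91.2 and 72.2 CPM and overlapped the controls. PSMA4 rose with cisplatin by 0.24 ± 0.08 and with vancomycin by 0.25 ± 0.10 on the log2 scale (adjusted p = 0.0122 and 0.0342). Its call was lost without control replicate 2 or 3 in both comparisons, and without vancomycin replicate 2 in the latter, with adjusted p up to 0.0779 and 0.191. PSMA1 rose with cisplatin by 0.42 ± 0.10 (adjusted p = 0.00124) and was at 0.28 ± 0.14 with vancomycin (adjusted p = 0.0955), and the direct difference between these drugs of -0.10 ± 0.13 was not called. PSMA5 was not called with any drug.

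With vancomycin the 2 alpha genes with the fewest counts, PSMA6 and PSMA2, had the largest differences of the ring. PSMA6 had 23 to 48 counts in the control libraries, 67 to 84 with iohexol, 74 to 122 with cisplatin, and 114 up to 140 with vancomycin, and no treated library overlapped the controls. Its log2 fold changes were 0.89 ± 0.29 with iohexol (adjusted p = 0.0491), 1.11 ± 0.27 with cisplatin (adjusted p = 0.00176) and 1.53 ± 0.24 with vancomycin (adjusted p = 9.15e-06). The iohexol call was lost without control replicate 2 or 3 or without iohexol replicate 1 or 2, where the adjusted p reached 0.164. PSMA2, at 82 to 115 control counts, was at 58 to 70 with vancomycin, a log2 fold change of -0.74 ± 0.21 (adjusted p = 0.0039). Both genes are among the uncertain ones that share exons with another gene.

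All 7 genes of the constitutive beta ring, where the proteolytic sites are, were higher with vancomycin, and 5 of the 7 with cisplatin. Over all genes 29.0% were higher with vancomycin and 29.2% with cisplatin. With iohexol 3 (42.9%) were lower, beside 9.77% of all genes, and 4 were not called. PSMB5, the chymotrypsin-like subunit, was at 98.5, 122 and 119 CPM in control, 172, 186 and 176 with cisplatin, and 186, 205 and 201 with vancomycin. All 6 of these treated libraries were above every control, with log2 fold changes of 0.65 ± 0.07 (adjusted p = 7.84e-07) and 0.76 ± 0.09 (adjusted p = 2.28e-07). With iohexol it stood at 137, 110 and 88.2 CPM, on both sides of the controls, and the difference was 0.00 ± 0.14.

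PSMB6, the caspase-like subunit, was at 76.8, 92.2 and 84.7 CPM in control, 125, 126 and 124 with cisplatin, and 113, 138 and 126 with vancomycin. Its log2 fold changes were 0.56 ± 0.07 (adjusted p = 2.34e-06) and 0.53 ± 0.10 (adjusted p = 5.3e-05). PSMB7, the trypsin-like subunit, was at 234, 236 and 232 CPM in control, 239, 242 and 246 with cisplatin, and 365, 422 and 399 with vancomycin. It rose with vancomycin by 0.71 ± 0.08 (adjusted p = 1.23e-07), while the cisplatin difference was 0.05 ± 0.06 (adjusted p = 0.434).

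The other beta subunits are structural. PSMB3 rose by 0.50 ± 0.06 with cisplatin and 0.41 ± 0.09 with vancomycin, and PSMB4 by 0.42 ± 0.06 and 0.35 ± 0.09. PSMB1 rose by 0.21 ± 0.06 and 0.39 ± 0.09, and its cisplatin call was lost without cisplatin replicate 2 (adjusted p = 0.0649). PSMB2 was the member with the smallest p that fell with iohexol, at 231, 224 and 216 CPM in control and 166, 156 and 176 with iohexol (log2 fold change -0.41 ± 0.08, adjusted p = 0.0046). With vancomycin PSMB2 rose by 0.22 ± 0.09 (adjusted p = 0.0315), a call lost in 4 of 6 fits that left out 1 library (control replicate 2 or 3, vancomycin replicate 2 or 3), with adjusted p up to 0.134.

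PSMB10, the inducible counterpart of PSMB7, was at 5.59, 14.9 and 13.1 CPM in control, 11.9, 11.6 and 4.34 with iohexol, 6.72, 7.39 and 9.21 with cisplatin, and 27.0, 28.5 and 28.9 with vancomycin. The vancomycin libraries were above all others, at a log2 fold change of 1.28 ± 0.19 (adjusted p = 5.46e-06), while the cisplatin difference of -0.54 ± 0.24 was not called (adjusted p = 0.0633). Control replicate 1 and iohexol replicate 3 were far below the other 2 libraries of their groups. For PSMB10 the reservation on shared sequence applies, with 42.5% of its words found in other genes. The 2 inducible genes outside the member rule were also higher with vancomycin, PSMB8 by 1.03 ± 0.10 (adjusted p = 9.56e-09) and PSMB9 by 1.26 ± 0.12 (adjusted p = 3.15e-09). The 3 inducible genes held 17.8% to 18.4% of the summed CPM of the 6 catalytic genes with vancomycin, beside 12.2% to 14.9% in control, 12.1% to 15.4% with iohexol and 10.9% to 11.3% with cisplatin.

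**Figure D3:**
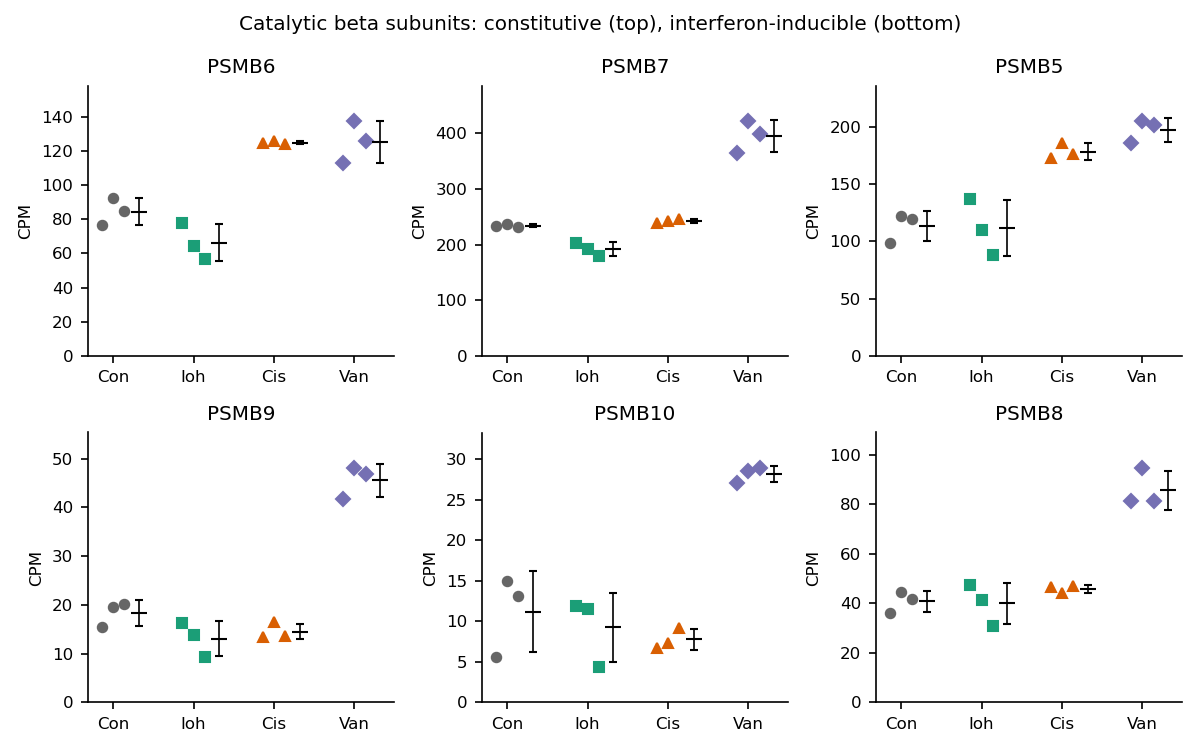
CPM in each library (symbols) with the mean and SD of 3 libraries (black) for the constitutive catalytic genes PSMB6, PSMB7 and PSMB5 in the top row and their inducible counterparts PSMB9, PSMB10 and PSMB8 below. PSMB5 and PSMB6 are above control with cisplatin and vancomycin, and the other 4 genes lie above every control library in all 3 vancomycin libraries.

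The 6 ATPases of the 19S base, which unfold the substrate, were all higher with cisplatin, and 4 (66.7%) were higher with vancomycin. Over all genes 29.2% were higher with cisplatin and 29.0% with vancomycin. With iohexol edgeR and limma-voom called 0 of the 6 and DESeq2 called PSMC1, and 2 (PSMC1 and PSMC3) had an unadjusted p under 0.05 in each. PSMC4 was at 89.8, 94.2 and 88.5 CPM in control, 144, 157 and 156 with cisplatin, and 130, 140 and 125 with vancomycin. It rose by 0.75 ± 0.06 with cisplatin (adjusted p = 2.22e-08) and by 0.49 ± 0.09 with vancomycin (adjusted p = 4.21e-05). PSMC3 showed the opposite order, at 82.8, 93.4 and 93.3 CPM in control, 115, 116 and 121 with cisplatin, and 136, 149 and 141 with vancomycin, with log2 fold changes of 0.38 ± 0.07 and 0.62 ± 0.09 (adjusted p = 8.69e-05 and 2.23e-06). The direct contrasts of vancomycin against cisplatin were called in both genes, at -0.22 ± 0.08 for PSMC4 (adjusted p = 0.0186) and 0.27 ± 0.08 for PSMC3 (adjusted p = 0.00582). The former was lost without cisplatin replicate 2 or 3 or vancomycin replicate 1 or 3, with adjusted p up to 0.0965.

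PSMC2, PSMC5 and PSMC6 rose with cisplatin by 0.27 ± 0.07, 0.28 ± 0.07 and 0.40 ± 0.08 on the log2 scale. PSMC6 was at 88.0, 78.2 and 70.8 CPM in control, 105, 102 and 106 with cisplatin, and 78.0, 89.2 and 72.1 with vancomycin, so the vancomycin libraries overlapped the controls (-0.03 ± 0.10). PSMC5 was called with vancomycin at 0.25 ± 0.09 (adjusted p = 0.0246). That call was lost without control replicate 1, vancomycin replicate 2 or vancomycin replicate 3, with adjusted p up to 0.102. PSMC1 rose by 0.45 ± 0.09 and 0.64 ± 0.11 with cisplatin and vancomycin, with the reservation on its overlap with NRDE2.

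The 3 non-ATPase base subunits among the members, the scaffold proteins PSMD1 and PSMD2 and the ubiquitin receptor PSMD4, differed in their calls with cisplatin and vancomycin. With iohexol all 3 were lower, beside 9.77% of all genes. PSMD2 was at 678, 744 and 729 CPM in control, 579, 556 and 544 with iohexol, 1098, 1085 and 1112 with cisplatin, and 754, 802 and 829 with vancomycin. It rose by 0.61 ± 0.05 with cisplatin (adjusted p = 1.59e-08) and fell with iohexol (log2 fold change -0.34 ± 0.08, adjusted p = 0.00908). Its vancomycin libraries were all above control, yet the difference of 0.11 ± 0.08 was not called (adjusted p = 0.276).

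PSMD1 went the other way. It was at 188, 185 and 168 CPM in control, 138, 132 and 143 with iohexol, 122, 114 and 114 with cisplatin, and 172, 174 and 162 with vancomycin. The iohexol and cisplatin libraries were below every control, with log2 fold changes of -0.37 ± 0.09 (adjusted p = 0.00952) and -0.63 ± 0.07 (adjusted p = 2.49e-07), and the vancomycin libraries overlapped the controls. PSMD4 rose by 0.37 ± 0.06 with cisplatin and 0.50 ± 0.09 with vancomycin, and its iohexol value was -0.29 ± 0.10 (adjusted p = 0.0484). The last call was kept only without iohexol replicate 1.

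Of the 8 lid genes, 5 were higher with cisplatin and 3 not called, 5 were higher and 2 lower with vancomycin, and 4 were lower with iohexol. The genes higher with cisplatin and those higher with vancomycin were not the same set: PSMD6, PSMD8 and PSMD13 were called in both, PSMD3 and PSMD12 were higher with cisplatin, and PSMD7 and PSMD14 were higher with vancomycin. PSMD3, a structural subunit, was at 203, 221 and 214 CPM in control, 338, 339 and 343 with cisplatin, and 203, 218 and 231 with vancomycin, with log2 fold changes of 0.68 ± 0.06 (adjusted p = 1.5e-08) and -0.01 ± 0.09. PSMD8 rose with both, by 0.64 ± 0.06 (adjusted p = 1.43e-07) and 0.57 ± 0.09 (adjusted p = 8.33e-06), from 139, 152 and 136 CPM to 212, 230 and 224 with cisplatin and 195, 231 and 228 with vancomycin.

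PSMD14 is the enzyme of the lid that cuts ubiquitin chains from the substrate, and PSMD7 is the partner it forms a dimer with. PSMD14 was at 105, 95.6 and 86.4 CPM in control, 80.3, 87.7 and 86.7 with cisplatin, and 141, 152 and 141 with vancomycin, and rose with vancomycin by 0.55 ± 0.09 (adjusted p = 1.91e-05). PSMD7 was at 44.6, 36.2 and 36.0 CPM in control, 37.8, 36.4 and 37.9 with cisplatin, and 60.9, 69.8 and 73.6 with vancomycin, and rose by 0.77 ± 0.11 (adjusted p = 2.45e-06). In both genes the cisplatin libraries overlapped the controls and the vancomycin libraries did not. For PSMD7 the reservation on shared sequence applies, with 30.7% of its words found in other genes.

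PSMD12 was at 133, 117 and 108 CPM in control, 92.0, 85.6 and 122 with iohexol, 158, 147 and 150 with cisplatin, and 105, 112 and 95.5 with vancomycin. It rose with cisplatin by 0.34 ± 0.07 (adjusted p = 0.000871) and was called lower with vancomycin at -0.24 ± 0.10 (adjusted p = 0.0372). PSMD11 was called lower with vancomycin at -0.24 ± 0.08 (adjusted p = 0.0181). Both of these vancomycin calls were lost when 1 library was left out, for PSMD12 without control replicate 1 or 2 or vancomycin replicate 1 or 3 (adjusted p up to 0.198) and for PSMD11 without control replicate 2 or vancomycin replicate 1 or 3 (up to 0.0804). The vancomycin call of PSMD6, at 0.24 ± 0.09, was lost without control replicate 2 or 3 or vancomycin replicate 2 or 3 (up to 0.132).

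PSMD5, PSMD9 and PSMD10 carry subunit names but are chaperones that hold the ATPases while the base is assembled. PSMD5 was at 101, 101 and 87.1 CPM in control, 114, 110 and 108 with cisplatin, and 75.5, 79.5 and 77.8 with vancomycin, above all controls with the former and below them with the latter. Its log2 fold changes were 0.20 ± 0.07 (adjusted p = 0.0207) and -0.35 ± 0.09 (adjusted p = 0.00216), and the cisplatin call was lost without control replicate 3 or cisplatin replicate 1 or 2 (adjusted p up to 0.138). PSMD9 rose with vancomycin by 0.40 ± 0.14 (adjusted p = 0.0192), a call lost without control replicate 2 or 3 or vancomycin replicate 1 (up to 0.0885). PSMD10 was not called with any drug.

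Each of the 4 activator genes had its own pattern. PSME1 and PSME2 encode the partners of the interferon-inducible 11S cap, PSME3 encodes the nuclear cap PA28 gamma, and PSME4 encodes PA200. PSME3 was at 200, 190 and 186 CPM in control, 161, 154 and 165 with iohexol, 240, 244 and 246 with cisplatin, and 113, 116 and 119 with vancomycin, and none of the 4 groups overlapped. It rose with cisplatin by 0.34 ± 0.06 (adjusted p = 6.53e-05), was lower with vancomycin at -0.77 ± 0.09 (adjusted p = 4.42e-08), and was not called with iohexol at -0.24 ± 0.08 (adjusted p = 0.0544).

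PSME1 and PSME2, whose products form one complex, moved apart with cisplatin. PSME1 was at 130, 132 and 112 CPM in control, 95.6, 91.9 and 97.1 with iohexol, 86.0, 91.0 and 87.8 with cisplatin, and 154, 183 and 169 with vancomycin. PSME2 was at 78.7, 85.7 and 90.7 CPM in control, 65.3, 59.7 and 51.0 with iohexol, 115, 118 and 116 with cisplatin, and 109, 128 and 117 with vancomycin. With cisplatin PSME1 was lower (-0.50 ± 0.07, adjusted p = 1.39e-05) and PSME2 higher (0.45 ± 0.07, adjusted p = 1.8e-05).

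With vancomycin both genes of the 11S cap rose, PSME1 by 0.39 ± 0.09 (adjusted p = 0.000867) and PSME2 by 0.43 ± 0.09 (adjusted p = 0.000334). With iohexol both were lower, PSME1 at -0.38 ± 0.09 (adjusted p = 0.0141) and PSME2 at -0.52 ± 0.11 (adjusted p = 0.0062). PSME4 rose with cisplatin by 0.27 ± 0.07 (adjusted p = 0.00418) and was not called with the other drugs.

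The iohexol differences were small and rested on few libraries. The 12 lower genes were PSMB1, PSMB2, PSMB7, PSMD1, PSMD2, PSMD3, PSMD4, PSMD6, PSMD13, PSMD14, PSME1 and PSME2, with log2 fold changes from -0.52 to -0.27. PSMB2 and PSME2 kept their call in all 6 fits that left out 1 library. The number of lower genes was 9 without control replicate 1, 2 without control replicate 2, 6 without control replicate 3, 11 without iohexol replicate 1, 3 without iohexol replicate 2 and 18 without iohexol replicate 3. Over all genes the lower share in these fits was, in the same order, 7.84%, 5.07%, 6.61%, 6.77%, 6.17% and 13.5%, so the 2 of 39 members without control replicate 2 and the 3 of 39 without iohexol replicate 2 are near the share of all genes. PSMD2 was lost without control replicate 2 (adjusted p = 0.0659), and PSMD1 and PSME1 without control replicate 2 or iohexol replicate 2 (up to 0.0627 and 0.0907). The calls of PSMB1, PSMD3 and PSMD13 were lost without control replicate 2 or 3 or iohexol replicate 2, and those of PSMB7, PSMD4, PSMD6 and PSMD14 in 4 or 5 of the 6 fits, with adjusted p up to 0.192. Without the 3 libraries that stand apart 24 members were lower and 1 higher, beside 18.2% lower and 16.4% higher of all genes. Under the same omission 28 members were higher and 4 lower with cisplatin, beside 29.2% and 31.3% of all genes, and 25 higher and 4 lower with vancomycin, beside 26.6% and 26.3%.

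The second question was whether the drugs differed from each other, tested in 1 fit of all 12 libraries. Cisplatin against iohexol gave 30 of 39 members higher in cisplatin and 1 lower (PSMD1), beside 26.0% higher and 27.9% lower over all genes. Vancomycin against iohexol gave 31 higher and 2 lower (PSMA2 and PSME3), beside 29.0% and 27.6%. The medians were 0.49 for cisplatin against iohexol and 0.65 for vancomycin against iohexol, with 0.00 and -0.02 over all genes. PSMD3 had the largest difference of cisplatin against iohexol, at 1.00 ± 0.08 (adjusted p = 2.61e-09), and PSMB10 the largest of vancomycin against iohexol, at 1.60 ± 0.28 (adjusted p = 6.21e-05). The difference of PSMD1 in the former, at -0.24 ± 0.07 (adjusted p = 0.0112), was lost without cisplatin replicate 3 (adjusted p = 0.0515).

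Of the 39 members 12 (30.8%) were higher in vancomycin than in cisplatin, 9 (23.1%) were higher in cisplatin and 18 were not called. Over all genes the shares were 34.7% and 30.0%, so these counts are no result about the members as a group, and the genes are given one by one. When TMM was replaced by the plain library size 6 members were higher and 23 lower in vancomycin, beside 23.1% and 45.8% of all genes, whose median was then -0.30. The median was 0.01 (all genes 0.03), and its sign changed with the scaling. PSMB10 was the most shifted to vancomycin, at 1.85 ± 0.28 (adjusted p = 9.14e-06), followed by PSME1 at 0.93 ± 0.08 (adjusted p = 7.33e-09), PSMD7 at 0.87 ± 0.11 (adjusted p = 5.87e-07), PSMD14 at 0.77 ± 0.09 (adjusted p = 2.61e-07) and PSMB7 at 0.70 ± 0.07 (adjusted p = 6.82e-08). PSMA3 and PSMD1 differed by 0.56 ± 0.11 and 0.53 ± 0.07 and were lower with cisplatin in their own comparison with control. The other 5 genes higher in vancomycin were PSMA7, PSMB1, PSMB2, PSMC3 and PSMD9. Of these, PSMB1 was lost without cisplatin replicate 1 or 3 or vancomycin replicate 2 or 3, PSMB2 without cisplatin replicate 1, and PSMD9 without cisplatin replicate 2 or 3 or vancomycin replicate 1 or 3, with adjusted p up to 0.136.

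PSME3 was the most shifted to cisplatin, at -1.07 ± 0.07 (adjusted p = 6.07e-11). It was followed by PSMA2 at -0.88 ± 0.21 (adjusted p = 0.00119), PSMD3 at -0.65 ± 0.08 (adjusted p = 6.26e-07), PSMD12 at -0.54 ± 0.11 (adjusted p = 0.000273), PSMD5 at -0.52 ± 0.08 (adjusted p = 1.65e-05) and PSMD2 at -0.47 ± 0.07 (adjusted p = 5.09e-06). PSMC6, PSMD11 and PSMC4 completed the list.

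**Figure D4:**
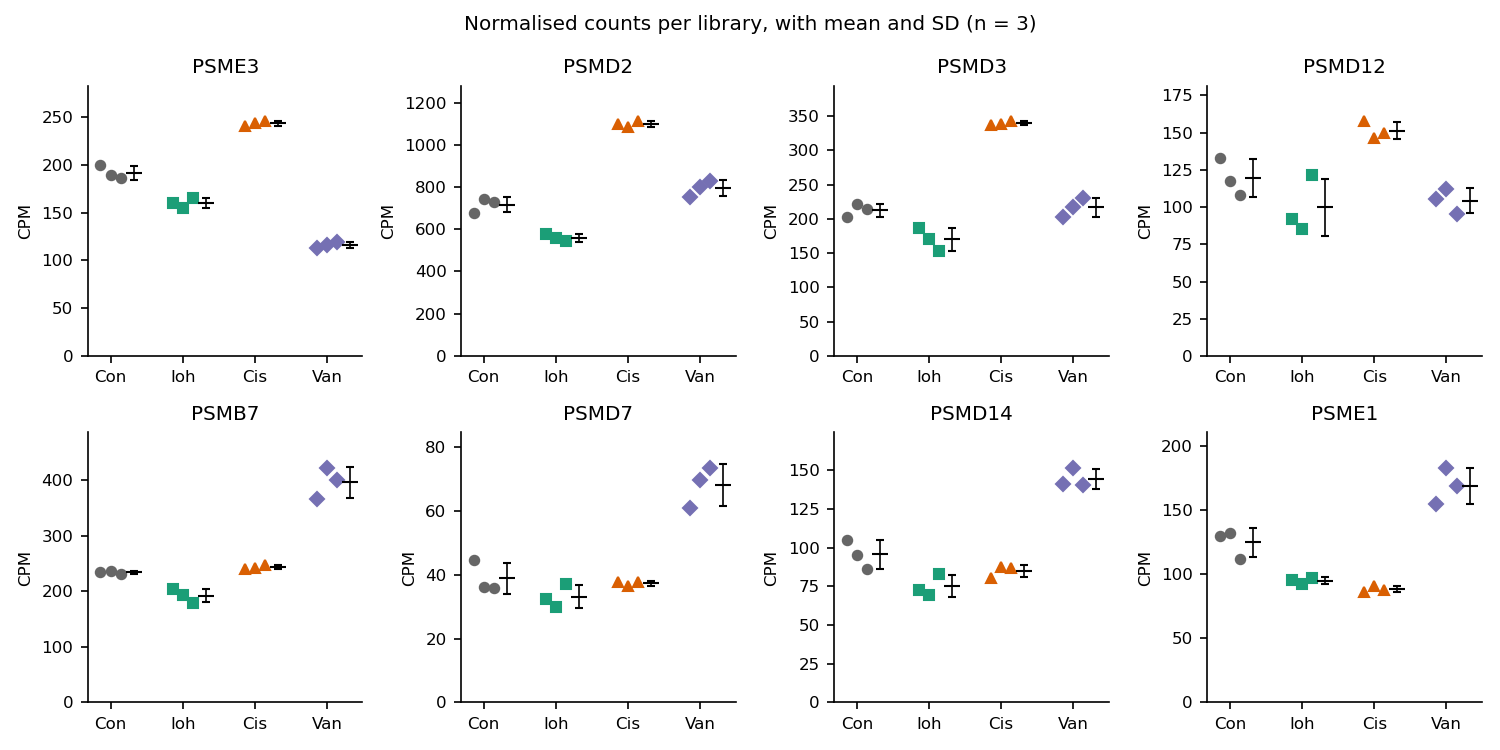
CPM in each library (symbols) with the mean and SD of 3 libraries (black) for 4 members higher in cisplatin than in vancomycin (top row) and 4 higher in vancomycin than in cisplatin (bottom row). The cisplatin libraries of PSME3 are at 240 to 246 CPM and its vancomycin libraries at 113 to 119, with the controls between them.

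For the members that were not called in this contrast the 95% interval of the difference, from the t quantile at the degrees of freedom of the test, gives how far apart the drugs could be. For PSMB6 it ran from -0.21 to 0.22 on the log2 scale, for PSMD8 from -0.22 to 0.17 and for PSMB3 from -0.22 to 0.14. For PSMA6, with few counts, it ran from -0.02 to 0.93 (edgeR adjusted p = 0.083).

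**Figure D5:**
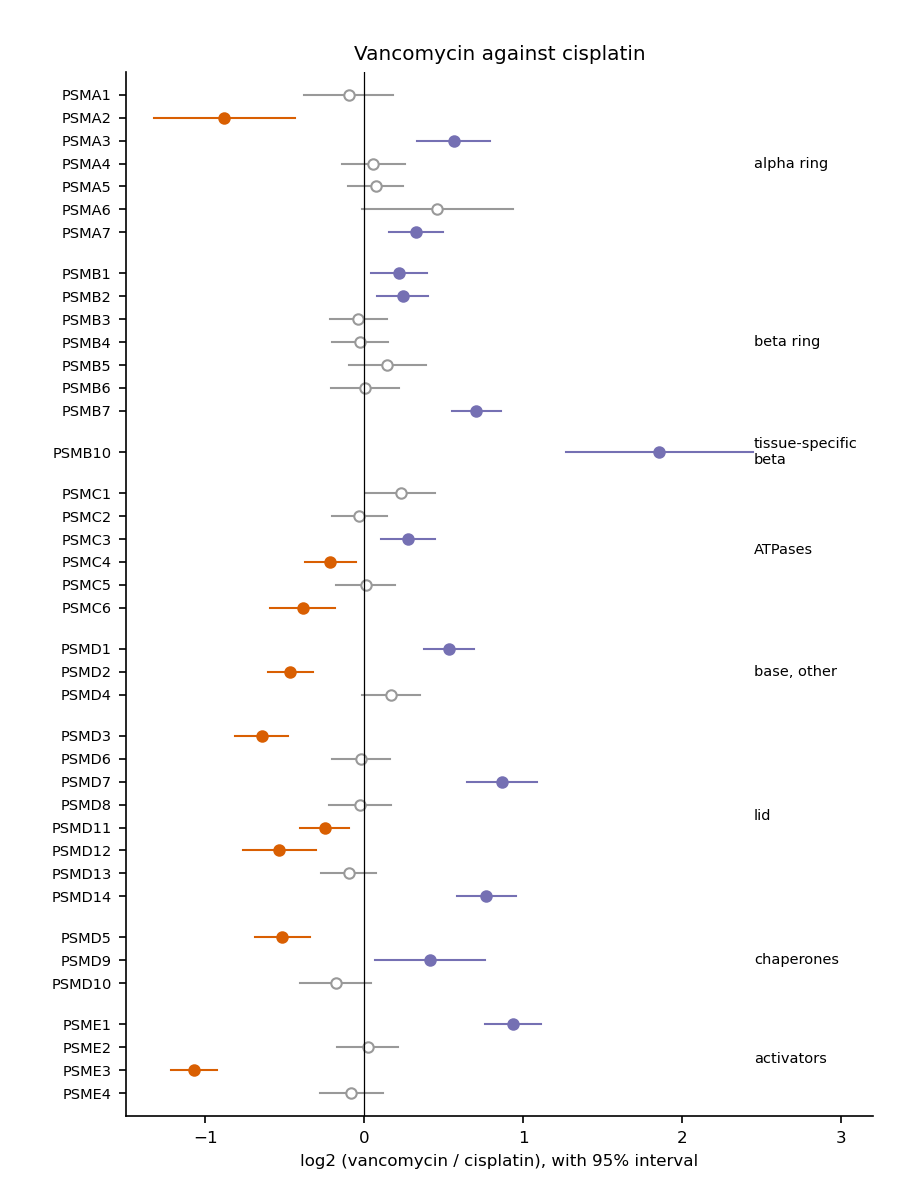
Log2 difference of vancomycin against cisplatin for the 39 tested genes, with 95% intervals from the t quantile of the test. Purple points are higher in vancomycin (12 genes), orange points higher in cisplatin (9 genes) and open grey points not called (18 genes).

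Members with and without the promoter core TGACNNNGC were called in both directions, and the split was not tested. Of the 12 members that hold it, 9 were higher and 2 lower with cisplatin, 7 higher and 2 lower with vancomycin, and 4 lower with iohexol. Of the 22 tested members with a promoter but without the core, 13 were higher and 1 lower with cisplatin, 12 higher and 3 lower with vancomycin, and 1 higher and 5 lower with iohexol. Over all genes 29.2% were higher and 30.6% lower with cisplatin. The shares were 29.0% and 28.8% with vancomycin, and 11.2% and 9.77% with iohexol. Median log2 fold changes with and without the core were 0.27 and 0.32 with cisplatin. They were 0.25 and 0.26 with vancomycin, and -0.24 in both sets with iohexol. The members whose stretches are printed above include PSMD3, PSMD5 and PSMD12, all higher in cisplatin than in vancomycin, as well as PSME1, which had the opposite difference, and PSMB3, which was not called between the drugs.

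The assembly of the core needs a further set of chaperones, PSMG1 to PSMG4 and POMP. Of these 5 genes 2 were higher with cisplatin (PSMG1 at 0.26 ± 0.10 and PSMG3 at 0.84 ± 0.11), 2 were higher with vancomycin (PSMG3 at 0.67 ± 0.14 and POMP at 0.44 ± 0.10), and 1 was lower with iohexol (POMP at -0.36 ± 0.11, adjusted p = 0.038). Over all genes 29.2% were higher with cisplatin, 29.0% higher with vancomycin and 9.77% lower with iohexol. This list and those below are short, and their counts were not tested as sets. POMP, which helps to close the barrel, was at 89.9, 83.8 and 74.5 CPM in control and at 108, 130 and 109 with vancomycin.

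Of 10 factors that bind the particle 2 were higher and 5 lower with cisplatin, beside 29.2% and 30.6% of all genes. With vancomycin 4 were higher and 5 lower, beside 29.0% and 28.8%. With iohexol 2 were lower, beside 9.77%. ADRM1, a ubiquitin receptor docked on PSMD1, rose by 0.71 ± 0.09 with cisplatin (adjusted p = 2.17e-06) and 0.86 ± 0.10 with vancomycin (adjusted p = 1.62e-07). SEM1, a small lid subunit without a PSM symbol, rose with vancomycin by 1.10 ± 0.11 (adjusted p = 6.34e-09) and was at 0.08 ± 0.08 with cisplatin. UBE3C, a ubiquitin ligase bound to the particle, was lower with both, at -0.38 ± 0.06 and -0.93 ± 0.09, and ECPAS, a scaffold of the particle, at -0.59 ± 0.06 and -0.43 ± 0.09.

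The regulators of the NRF1 and NRF2 pathway did not move as one group. Of 13 genes 7 (53.8%) were higher and 4 (30.8%) lower with cisplatin, beside 29.2% and 30.6% of all genes. With vancomycin 6 (46.2%) were higher and 1 (7.69%) lower, beside 29.0% and 28.8%. With iohexol 2 (15.4%) were lower, beside 9.77%. The list medians were 0.44 with cisplatin (all genes 0.01), 0.20 with vancomycin (all genes -0.01) and 0.13 with iohexol (all genes 0.01). NFE2L1, which encodes NRF1, was at 271, 318 and 310 CPM in control, 263, 261 and 265 with cisplatin (log2 fold change -0.19 ± 0.06, adjusted p = 0.0153), and 353, 326 and 380 with vancomycin (0.20 ± 0.09, adjusted p = 0.0672). NFE2L2, which encodes NRF2, rose with vancomycin by 0.31 ± 0.10 (adjusted p = 0.0117) and was at -0.13 ± 0.09 with cisplatin. These RNA levels do not measure the activity of either factor, which is set largely after translation.

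The small MAF genes, whose products pair with NRF1 and NRF2 on DNA, rose with both drugs. MAFF went from 35.6, 39.9 and 34.0 CPM in control to 163, 163 and 153 with cisplatin and 142, 169 and 169 with vancomycin, log2 fold changes of 2.13 ± 0.07 (adjusted p = 2.16e-13) and 2.09 ± 0.10 (adjusted p = 2.56e-14). MAFG rose by 0.80 ± 0.07 and 1.03 ± 0.09, and MAFK by 1.07 ± 0.11 and 1.10 ± 0.12. NFE2L3 was lower with both drugs, at -0.45 ± 0.08 and -1.10 ± 0.11.

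Of 11 genes of ubiquitin and its carriers, 5 (45.5%) were higher and 3 (27.3%) lower with cisplatin, beside 29.2% and 30.6% of all genes. With vancomycin 4 (36.4%) were higher and 2 (18.2%) lower, beside 29.0% and 28.8%. With iohexol 1 (9.09%) was higher and 5 (45.5%) lower, beside 11.2% and 9.77%. SQSTM1, a ubiquitin-binding receptor of autophagy, was at 203, 248 and 248 CPM in control, 333, 338 and 280 with iohexol, 183, 187 and 182 with cisplatin, and 1024, 1067 and 1041 with vancomycin. It rose with vancomycin by 2.12 ± 0.09 (adjusted p = 3.34e-15) and with iohexol by 0.47 ± 0.11 (adjusted p = 0.00903), and was lower with cisplatin at -0.34 ± 0.07 (adjusted p = 0.00048).

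UBA6, a ubiquitin-activating enzyme, was lower with each drug, at -1.19 ± 0.12 with iohexol, -1.48 ± 0.07 with cisplatin and -1.14 ± 0.09 with vancomycin. UBQLN4, a shuttle that carries ubiquitinated proteins to the particle, rose with cisplatin by 0.76 ± 0.07 (adjusted p = 1.05e-07) and was at 0.00 ± 0.10 with vancomycin.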

How the data were processed

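RNA of 12 HK-2 samples, 3 per group, was poly(A)-selected and made into libraries with a NEBNext kit. The authors deposited whole-number read counts per gene for 58735 genes, not normalized, together with gene positions and lengths. The submitters' processing notes name CASAVA 1.8, fastp, HISAT2 2.0.5, featureCounts 1.5.0-p3 and DESeq2 1.20.0, without the role, strand setting or annotation release. Without strand, reads of overlapping genes cannot be told apart.

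Groups were taken from the sample labels. Counts were tested with edgeR 4.0.16 in R 4.3.3 (filterByExpr at 10 counts per gene and 15 in all, TMM factors, glmQLFit and glmQLFTest), in 1 fit per drug with the 3 controls and in 1 fit of all 12 samples for contrasts between drugs. Adjustment of p followed Benjamini and Hochberg and covered every gene tested, and the SE was the log2 fold change divided by the square root of F. CPM used the TMM factors of all 12 samples. The fit was tested on simulated cisplatin and control counts. It called 57 of 100 genes with a true log2 change of 0.5 and 96 of 100 with a change of 1. The simulation used a fixed spread and changed far fewer genes than were called here. A member that was not called may therefore still differ. Intervals rest on the fitted spread between these samples, which may be technical. The floor of 3 counts covers counting error only. No molecular identifiers were used. Lengths are the union of all annotated exons, which understates genes with long, little-used exons. Alternatives were DESeq2 1.42.0, limma-voom (limma 3.58.1), RLE factors, library size only, other filters, other samples in the fit, a replicate block and leaving out libraries.

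The members and gene lists were chosen with earlier results of these data known. Named with values were, per drug, the 4 risen and the 4 fallen members with the smallest p, the catalytic and activator genes, members beyond a log2 fold change of 1, members that failed the filter, the extremes of each subunit group, PSMB8, PSMB9, NFE2L1, NFE2L2, POMP and up to 4 genes of each other list with the smallest p. Further members were named after their values were seen, to account for all 41. An item withheld from the gene lists is not reported here.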

Additional observations from a re-analysis of the deposited data

How the results depend on the processing

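No member called against control changed direction under any alternative run. The count of members lower with iohexol, 12 as reported, was 5 with library size only (6.89% of all genes lower), 19 in a fit of all 4 groups (13.4%), 2 with the replicate block (5.84%, near the members' own share) and 24 (18.2%) without the 3 libraries that stand apart (control replicate 1, iohexol replicate 3 and vancomycin replicate 2, an alternative chosen after seeing the data). It ranged from 2 to 18 when 1 library was left out, and the count higher with iohexol from 0 to 1. Cisplatin gave 5 lower members instead of 3 with no filter and with the replicate block, and vancomycin 3 to 5 lower when 1 library was left out. Library size only moved the median of all genes by more than 0.1, to 0.23 with cisplatin, 0.13 for cisplatin against iohexol, -0.22 for vancomycin against iohexol and -0.30 for vancomycin against cisplatin. Relative to all genes, the members' median under it was 0.28 with cisplatin, 0.35 with vancomycin and -0.26 with iohexol. The members' own medians under it were 0.50 with cisplatin, 0.62 for cisplatin against iohexol and 0.44 for vancomycin against iohexol. The last was 0.53 without the 3 libraries and 0.55 to 0.69 without 1 library. Members lower in cisplatin against iohexol, 1 as reported, were 0 with library size only, 2 without the 3 libraries and 0 to 2 without 1 library, and members lower in vancomycin against iohexol were 4 with library size only. Vancomycin against cisplatin gave 6 higher and 23 lower with library size only, beside 23.1% and 45.8% of all genes. Its median, 0.0094 as reported, turned to -0.024 with DESeq2 and with RLE factors, -0.33 with library size only, -0.013 with 10 counts in every sample, -0.045 in a separate fit of both groups and -0.038 without the 3 libraries, with a range of -0.032 to 0.080 without 1 library, so no direction can be given to it. The replicate block kept all 29 calls with cisplatin and all 29 with vancomycin, and 3 of 13 with iohexol. The labels do not say whether equal replicate numbers mark paired samples. Correlations of same-numbered deviations from the group means lay between -0.18 and 0.10. With 3 samples per group and no correlations of differently numbered samples beside them, these values cannot decide whether a weak pairing exists. Causes of these differences were not tested. Depth limits the members with few counts, PSMA6 with 23 to 140 counts and PSMA2 with 58 to 145, and PSMB11 with 0 to 3 could not be tested.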
